A study of Mus musculus with 30 samples.

Results

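Untreated marrow-derived mesenchymal stem cells (MSCs) were compared with untreated NIH 3T3 cells, an embryonic fibroblast line, at the level of chromatin accessibility. The comparison was chosen by sample label and not by a measured value. It takes the 3 untreated MSC libraries and the 3 untreated NIH 3T3 libraries of the 4 h experiment, that is 6 of the 30 libraries of the series. The series as a whole asks how nuclear actin structure affects chromatin, and it set the fibroblast line beside MSCs as a different cellular setting. Both groups were without drug, and the labels give strain C57BL/6J and sex male for both. The methods state that the MSCs were grown from the marrow of 6 mice of this strain as 1 primary line used for all experiments, so that the MSC libraries do not stand for separate animals, and that NIH 3T3 cells came from a cell bank. NIH 3T3 is in general known as an immortalized line from Swiss mouse embryos, so the strain and sex given for these libraries were taken as label text only. No source used here says whether the 3 libraries of a group came from separate cultures, and the p-values below therefore measure only the spread between these libraries, which may be technical.

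ATAC-seq marks open chromatin with a transposase that inserts sequencing adapters where DNA is not tightly packed by nucleosomes. Promoters of many genes are open in most cell types, whereas enhancers, which lie at a distance from the genes they act on, are open in fewer cell types and carry much of a cell's lineage identity. MSCs of the marrow can form bone, fat and cartilage, under transcription factors such as Runx2 for osteoblasts, Pparg and C/EBP factors for adipocytes and Sox9 for chondrocytes. NIH 3T3 cells are a classic fibroblast line that grows without limit in culture.

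The deposited table counts reads in 369846 windows, each between 500 and 11728 bp long (median 589 bp). The 6 libraries held 24368857 to 30017192 counts, with the MSC libraries (29239381 to 30017192) deeper than the NIH 3T3 libraries (24368857 to 27866363). Counts below are normalized counts, that is counts scaled to a common effective library size, and fold changes are MSC minus NIH 3T3 on the log2 scale. Windows on chromosome Y held 3088 to 3265 raw counts per MSC library (0.0104% to 0.0112%) and 339 to 474 per NIH 3T3 library (0.00139% to 0.00175%), and the groups did not overlap. Windows that contain a transcription start site (TSS) took 30.4% to 31.0% of the counts in MSCs and 27.7% to 29.6% in NIH 3T3 cells. In bulk libraries, a larger share of cells with an open site and a more open site in each cell cannot be told apart, and neither can more copies of the DNA.

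The cell types differed across a large part of their accessible chromatin. A window was called at a Benjamini-Hochberg adjusted p below 0.01 in edgeR's quasi-likelihood test and a fold change beyond 2 (1 on the log2 scale). Among 339793 windows with enough counts to test, 63302 (18.6%) were more accessible in MSCs and 64623 (19.0%) were more accessible in NIH 3T3 cells. The median log2 fold change of all tested windows was -0.04. Scaling by total counts moved this median to -0.23 and the share of calls that were higher in MSCs from 49.5% to 40.1%, and upper quartile scaling gave 41.8%. The balance between the directions is thus known only relative to the scaling. Called windows had a median log2 fold change of 1.88 in the MSC direction and -1.86 in the NIH 3T3 direction. Beyond a log2 fold change of 4 there were 3339 windows higher in MSCs and 2217 higher in NIH 3T3 cells.

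Differences between cell types were far larger than those between replicates. Over 208801 windows with a mean of at least 20 counts, rank correlations across windows were 0.945 to 0.949 between MSC libraries, 0.932 to 0.934 between NIH 3T3 libraries and 0.420 to 0.428 between cell types. These are descriptions across windows, which are not independent, and all pairs share the same set of windows. On the first principal component of the 1000 most variable windows (variance-stabilized counts), which held 96.3% of the variance, the group means lay 180 units apart and the larger of the replicate SDs was 3.93. The 3 values of each group did not overlap in 99.2% of the windows called higher in MSCs and in 98.9% of those called higher in NIH 3T3 cells, against 62.4% of all tested windows. The call limits and the choice of the most variable windows favor such separation, so the values for these windows do not test it.

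Promoters leaned to MSCs and windows far from genes leaned to NIH 3T3 cells. Of 24088 tested windows that contain an annotated TSS, 4174 (17.3%) were higher in MSCs and 2381 (9.88%) were higher in NIH 3T3 cells, with a median log2 fold change of 0.23. Of 44714 windows more than 50 kb from any TSS, 8209 (18.4%) were higher in MSCs and 10714 (24.0%) in NIH 3T3 cells, with a median of -0.34. Windows without a TSS but within 5 kb of one and those 5 to 50 kb away lay between these, with 18.3% against 16.6% and 19.0% against 20.3%. With total-count scaling the share of calls higher in MSCs was 53.4% at TSS windows and 35.2% beyond 50 kb, in place of 63.7% and 43.4%. These 2 places were the ones recomputed. Without the run of chromosome 4 blocks described further on, 8142 windows beyond 50 kb were higher in MSCs and 8914 in NIH 3T3 cells. With local centering, also described there, the share of calls higher in MSCs was 64.7% at TSS windows and 47.6% beyond 50 kb. The lean of distant windows to NIH 3T3 cells was smaller in both cases. The same ordering held by annotated feature, with 18.9% of windows in untranslated regions higher in MSCs and 12.3% higher in NIH 3T3 cells, while introns gave 19.7% and 18.9% and intergenic windows 17.5% and 20.1%.

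**Figure D1:**
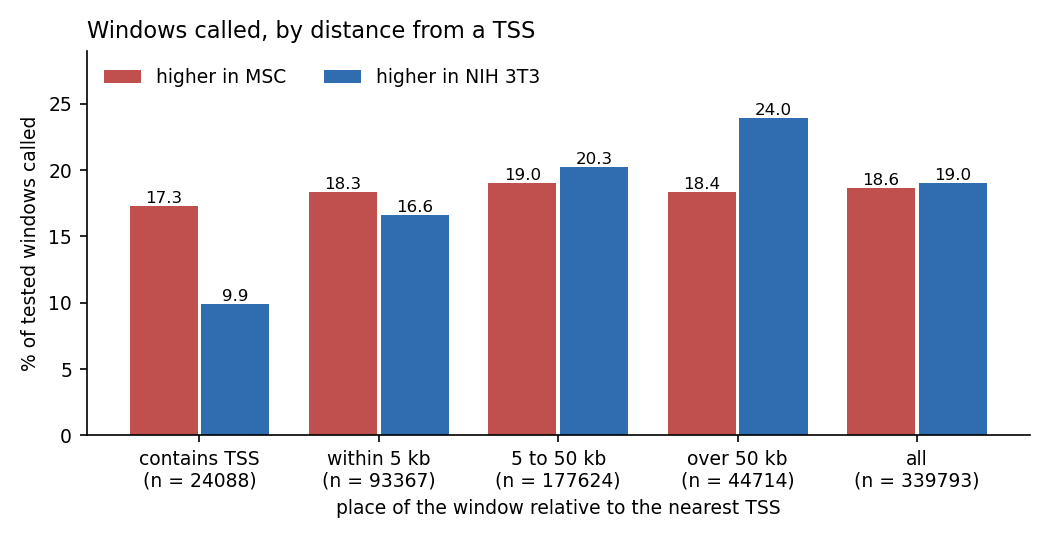
Share of tested windows called more accessible in MSCs (red) or in NIH 3T3 cells (blue), in percent on the vertical axis, for windows at increasing distance from the nearest TSS (n of tested windows under each pair). The NIH 3T3 share rises from 9.88% at TSS windows to 24.0% beyond 50 kb, while the MSC share stays between 17.3% and 19.0%.

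The lean of distant windows to NIH 3T3 cells was seen in weak windows and not in strong ones. Beyond 50 kb, windows with a mean under 50 counts had 14.3% of windows higher in MSCs and 23.7% higher in NIH 3T3 cells (median -0.45, n = 35783). Those with a mean of 200 or more had 36.5% and 18.9% (median 0.51, n = 1983). At TSS windows with a mean of 200 or more the shares were 10.4% and 3.49%, so strong promoters were called less often than strong distant windows in either direction. The part of library depth and background in the weak windows was not tested.

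The marker genes of the comparison were Runx2 (transcription factor required for osteoblasts), Pparg (nuclear receptor that drives fat cell differentiation), Ebf1 (transcription factor of fat cells and of the marrow stroma), Prrx1 (homeobox factor of limb and skeletal mesenchyme) and Cdkn2a (which encodes the cell-cycle inhibitors Ink4a and Arf). They did not move as a group. The only TSS window of Cdkn2a and the upstream promoter of Pparg held many times more counts in MSCs. The Cdkn2a window lies in a stretch almost empty in NIH 3T3 cells, described further on. Closed chromatin and missing DNA cannot be told apart there. The main promoter of Runx2 and that of Ebf1 were not called, and the promoter of Prrx1 had lower counts in MSCs without reaching the fold limit. All positions are GRCm38 coordinates.

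Runx2 has 2 TSS windows. At chr17:44733530-44736740 the normalized counts were 392, 405 and 363 in the MSC libraries and 404, 342 and 326 in the NIH 3T3 libraries (log2 fold change 0.12 ± 0.11 (SE), adjusted p = 0.344), and the groups overlapped. This difference changed sign under upper quartile scaling, total-count scaling and removal of the GC trend. The upstream window at chr17:44814486-44815264 had 235, 294 and 271 in the MSC libraries and 197, 160.0 and 184 in the NIH 3T3 libraries, with all 3 MSC values above the NIH 3T3 values, but the size was below the fold limit (log2 fold change 0.57 ± 0.12, adjusted p = 1.01e-04). Of the 31 tested windows nearest to Runx2 within 50 kb, 10 were higher in MSCs and 2 in NIH 3T3 cells, beside 18.7% and 17.2% of all windows within 50 kb of a protein-coding TSS.

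Pparg differed at its upstream promoter and much less at its downstream starts. At the first start, chr6:115360747-115361314, the counts were 250.0, 272 and 211 in the MSC libraries and 2.21, 10.9 and 4.92 in the NIH 3T3 libraries (log2 fold change 5.26 ± 0.25 (SE), adjusted p = 1.18e-25). The neighboring window at chr6:115361635-115362542 gave 279, 323 and 295 in MSCs against 13.3, 13.6 and 7.87 in NIH 3T3 cells (log2 fold change 4.68 ± 0.20 (SE), adjusted p = 1.20e-27). MSC values exceeded NIH 3T3 values by more than an order of magnitude in both windows. Further into the gene, at chr6:115421553-115422129, MSC counts of 69.8, 67.8 and 66.7 stood against 28.8, 21.8 and 26.6, a smaller difference that was still called (1.41 ± 0.26, adjusted p = 4.35e-06). At chr6:115439521-115440081 the counts overlapped, with 55.7, 42.9 and 26.3 in MSCs and 44.3, 54.5 and 35.4 in NIH 3T3 cells (-0.11 ± 0.27, adjusted p = 0.746). Across the locus 16 of 51 tested windows were higher in MSCs and 9 in NIH 3T3 cells.

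Ebf1 has 4 TSS windows that went in different directions. The strongest, chr11:44616312-44617476, had 579, 676 and 651 in the MSC libraries and 601, 476 and 539 in the NIH 3T3 libraries (log2 fold change 0.24 ± 0.10 (SE), adjusted p = 0.0295), and its groups overlapped. The next, chr11:44618053-44618637, was higher in NIH 3T3 cells, with 64.8, 60.8 and 73.8 in MSCs against 156, 125 and 157 (-1.13 ± 0.17). Both windows further into the gene were higher in MSCs. At chr11:44621198-44621951 the MSC counts were 40.5, 57.8 and 56.6 against 11.1, 20.9 and 9.84 (1.86 ± 0.33). At chr11:44911236-44912206 they were 105, 133 and 114 against 8.85, 17.3 and 11.8 (3.18 ± 0.26). Within 50 kb, 25 of 53 tested windows were higher in MSCs and 7 in NIH 3T3 cells.

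Prrx1 had lower promoter counts in MSCs. The window at chr1:163313391-163315628 held 116, 138 and 125 in the MSC libraries and 218, 251 and 220.4 in the NIH 3T3 libraries, without overlap (log2 fold change -0.86 ± 0.13 (SE), adjusted p = 1.88e-07). The size lay below the limit, and the window was called with local centering (-1.11), total-count scaling (-1.05) and upper quartile scaling (-1.01). Its locus leaned the other way, with 13 of 38 windows higher in MSCs and 5 higher in NIH 3T3 cells. Cdkn2a gave the largest difference of the markers. Its window at chr4:89294530-89295655 held 530.3, 578 and 622 in the MSC libraries and 2.21, 0 and 0 in the NIH 3T3 libraries (log2 fold change 9.52 ± 0.29 (SE), adjusted p = 4.58e-35), so the NIH 3T3 libraries were at or near 0. This window covers the start at 89294653 and was the only TSS window of the gene, so any other start was not measured. Summed over all windows of a locus, the log2 fold changes were -0.06 ± 0.05 for Runx2 (adjusted p = 0.256), 0.39 ± 0.05 for Pparg, 0.49 ± 0.04 for Ebf1, 0.35 ± 0.05 for Prrx1 and 1.13 ± 0.07 for Cdkn2a. Only the Cdkn2a sum passed the fold limit, although each of the other loci held windows called in both directions.

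**Figure D2:**
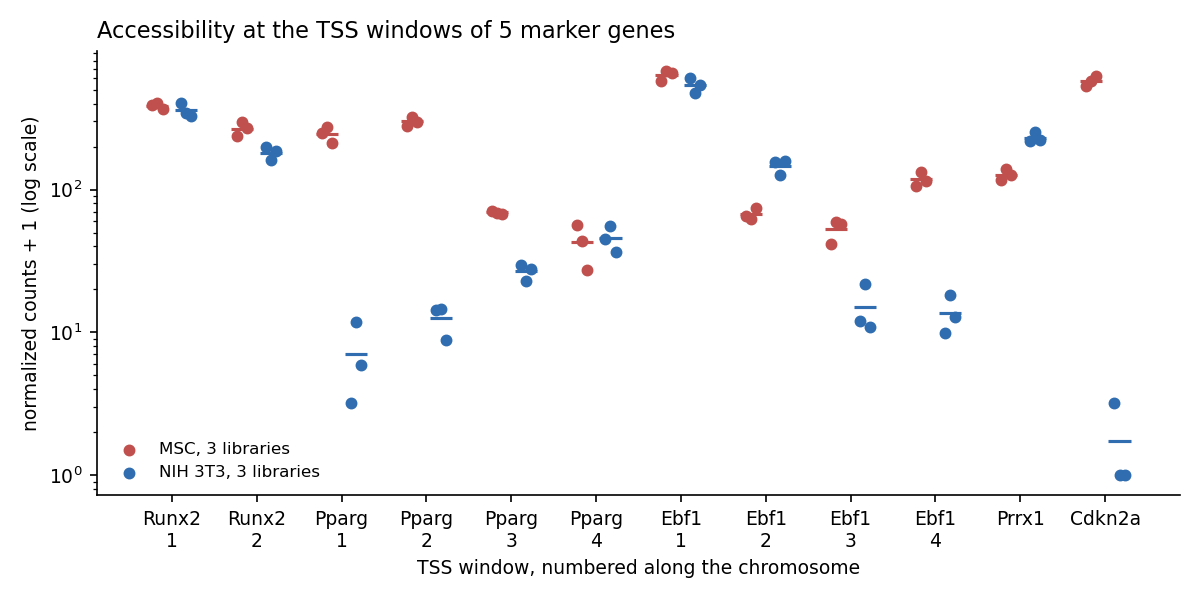
Normalized counts + 1 (log scale, vertical axis) at the TSS windows of the 5 marker genes, numbered along the chromosome, with 1 point per library and a bar at the mean of the 3 libraries (MSC red, NIH 3T3 blue). Groups lie far apart at the first and second Pparg windows (log2 fold changes 5.26 and 4.68) and at Cdkn2a (9.52), and overlap at the first Runx2 and Ebf1 windows.

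Within each marker locus, the intronic or intergenic windows with the largest called difference in each direction were taken. The central 200 bp of each is printed from the forward strand of the GRCm38 reference, for windows with at least 100 counts in the higher group and no overlap between groups. No window of the Runx2 locus met these limits in the NIH 3T3 direction. Capitals mark the letters of the RUNX, EBF, C/EBP, AP-1, TEAD, posterior HOX and PBX-HOX motifs on either strand, spelled out with the motif counts further on, while letters of the other motifs counted there, such as GATA, are left in lower case.
Runx2, higher in MSC, chr17:44706505-44706704: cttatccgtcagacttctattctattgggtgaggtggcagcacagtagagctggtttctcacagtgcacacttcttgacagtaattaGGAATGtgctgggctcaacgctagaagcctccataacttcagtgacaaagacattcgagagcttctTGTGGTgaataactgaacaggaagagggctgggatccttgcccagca
Pparg, higher in MSC, chr6:115361989-115362188: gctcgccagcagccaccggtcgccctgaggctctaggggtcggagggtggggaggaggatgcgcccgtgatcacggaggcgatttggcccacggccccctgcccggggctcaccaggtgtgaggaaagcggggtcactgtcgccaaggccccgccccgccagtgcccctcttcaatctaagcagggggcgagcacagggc
Pparg, higher in NIH 3T3, chr6:115453737-115453936: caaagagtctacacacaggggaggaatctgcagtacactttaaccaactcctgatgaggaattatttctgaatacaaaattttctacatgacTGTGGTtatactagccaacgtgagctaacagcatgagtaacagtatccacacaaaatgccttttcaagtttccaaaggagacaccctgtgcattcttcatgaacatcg
Ebf1, higher in MSC, chr11:44925034-44925233: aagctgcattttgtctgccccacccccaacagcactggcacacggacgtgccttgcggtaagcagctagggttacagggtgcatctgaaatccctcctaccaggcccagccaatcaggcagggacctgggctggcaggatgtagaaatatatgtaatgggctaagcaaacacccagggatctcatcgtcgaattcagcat
Ebf1, higher in NIH 3T3, chr11:44902219-44902418: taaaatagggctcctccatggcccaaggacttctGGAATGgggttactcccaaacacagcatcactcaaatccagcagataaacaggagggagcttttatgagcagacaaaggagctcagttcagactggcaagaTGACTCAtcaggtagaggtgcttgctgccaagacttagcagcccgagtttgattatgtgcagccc
Prrx1, higher in MSC, chr1:163281893-163282092: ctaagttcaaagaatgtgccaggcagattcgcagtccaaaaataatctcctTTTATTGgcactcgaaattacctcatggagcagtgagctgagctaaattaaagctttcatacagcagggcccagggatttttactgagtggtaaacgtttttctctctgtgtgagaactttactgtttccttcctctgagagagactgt
Prrx1, higher in NIH 3T3, chr1:163338924-163339123: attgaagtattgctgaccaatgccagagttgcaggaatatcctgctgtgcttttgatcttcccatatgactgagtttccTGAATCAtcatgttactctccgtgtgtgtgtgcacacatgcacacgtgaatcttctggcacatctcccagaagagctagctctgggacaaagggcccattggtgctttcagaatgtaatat
Cdkn2a, higher in MSC, chr4:89302236-89302435: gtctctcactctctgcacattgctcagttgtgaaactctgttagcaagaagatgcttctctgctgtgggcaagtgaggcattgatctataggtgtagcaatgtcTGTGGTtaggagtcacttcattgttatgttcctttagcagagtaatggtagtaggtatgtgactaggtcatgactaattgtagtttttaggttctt
Cdkn2a, higher in NIH 3T3, chr4:89234863-89235062: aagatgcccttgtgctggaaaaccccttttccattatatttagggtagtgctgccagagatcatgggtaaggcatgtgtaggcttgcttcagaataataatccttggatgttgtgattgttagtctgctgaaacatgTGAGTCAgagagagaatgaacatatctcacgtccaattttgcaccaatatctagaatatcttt

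The Runx2 sequence, in an intron, carries a RUNX and a TEAD match, and its window held 113, 145 and 133 in the MSC libraries and 3.32, 5.45 and 9.84 in the NIH 3T3 libraries (log2 fold change 4.35 ± 0.29). The Pparg sequence higher in MSCs lies in an intron within the second TSS window, whose counts are given above, and holds none of the marked motifs. The Pparg sequence higher in NIH 3T3 cells lies in an intron, holds a RUNX match, and had 15.2, 20.9 and 12.1 in the MSC libraries and 85.2, 142 and 119 in the NIH 3T3 libraries (-2.84 ± 0.26). Opposite directions were therefore present within the same gene.

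At Ebf1 the MSC window had 425, 459 and 456 in the MSC libraries and 6.64, 7.27 and 9.84 in the NIH 3T3 libraries (5.79 ± 0.19) without a marked motif. The NIH 3T3 window, which holds an AP-1 and a TEAD match, had 48.6, 57.8 and 59.7 in the MSC libraries and 381, 350.0 and 363 in the NIH 3T3 libraries (-2.71 ± 0.14). Both are intronic, and the values of the groups are well apart in each. At Prrx1 the intronic MSC window, with a posterior HOX match, had 183, 183 and 169.9 in the MSC libraries and 11.1, 39.1 and 41.3 in the NIH 3T3 libraries (2.51 ± 0.21), and the intergenic NIH 3T3 window, with an AP-1 match, had 10.1, 17.95 and 16.2 in the MSC libraries and 137, 170.0 and 152 in the NIH 3T3 libraries (-3.37 ± 0.23). Near Cdkn2a the intergenic MSC window, with a RUNX match, had 238, 241 and 246 in the MSC libraries and 0, 0 and 0 in the NIH 3T3 libraries, which is at least 242-fold higher when the NIH 3T3 group is set to a floor of 3 counts over its 3 libraries. The NIH 3T3 window of that locus, with an AP-1 match, had 28.3, 28.9 and 37.4 in the MSC libraries and 386, 295 and 328 in the NIH 3T3 libraries (-3.41 ± 0.17). A match describes letters in the sequence and not a bound factor.

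Promoters of fat and bone lineage genes were often higher in MSCs. For each list the TSS window with the most counts was taken per gene. Among all 14806 protein-coding genes with a tested TSS window, 2300 (15.5%) were higher in MSCs and 868 (5.86%) in NIH 3T3 cells, with a median log2 fold change of 0.28. The lists were chosen with earlier results of these data known, and their counts carry no test of the list. Of 14 tested adipocyte genes 8 were higher in MSCs and 1 in NIH 3T3 cells (median 1.42). Without MSC library 1 the median was 0.85 and without NIH 3T3 library 3 it was 0.97, each with 7 and 1 called of 15 tested. Of 15 osteoblast genes 8 were higher in MSCs and 0 in NIH 3T3 cells (median 1.06).

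Beside Pparg, the adipocyte list held Cebpa, the C/EBP factor of terminal fat differentiation, with 1281, 1276 and 1191 in MSCs and 53.1, 37.3 and 42.3 in NIH 3T3 cells (log2 fold change 4.83 ± 0.13 (SE), adjusted p = 2.95e-37). Zfp423, a zinc-finger factor of preadipocytes, had 73.9, 82.8 and 77.9 in MSCs and 1.11, 3.64 and 3.94 in NIH 3T3 cells (4.66 ± 0.39). No NIH 3T3 value came near an MSC value at either promoter. Higher counts in MSCs were also called at Klf15 (3.24), Ebf2 (2.90), the lipid enzyme gene Lpl (1.88), the fatty acid carrier gene Fabp4 (1.80) and the fatty acid receptor gene Cd36 (1.03), with Cd36 no longer called under several of the alternatives. Lipe, which encodes hormone-sensitive lipase, was higher in NIH 3T3 cells (52.6, 38.9 and 37.4 in MSCs and 181, 117 and 137 in NIH 3T3 cells, -1.75 ± 0.20). The early factors Cebpb (-0.31) and Cebpd (0.10) were not called. Adipoq, the adiponectin gene, had too few counts at its TSS window to be tested. Summed over the locus, 6 of 16 adipocyte genes were higher in MSCs and 0 in NIH 3T3 cells, beside 7.92% and 9.96% of 19254 gene loci.

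Osteoblast genes higher in MSCs included 4 homeobox factors of the Msx and Dlx families. Msx2 had 200.4, 174 and 189 in MSCs and 4.43, 0 and 0 in NIH 3T3 cells (log2 fold change 7.02 ± 0.37 (SE), adjusted p = 2.70e-24). Dlx6 had 229.8, 272 and 234 in MSCs and 4.43, 8.18 and 10.8 in NIH 3T3 cells (4.93 ± 0.23) and Dlx5, its neighbor in the genome, 260.1, 267 and 290.2 in MSCs and 25.4, 22.7 and 7.87 in NIH 3T3 cells (3.87 ± 0.20). NIH 3T3 libraries were close to 0 at Msx2 and Dlx6. The bone matrix gene Spp1 (1.77), the growth factor gene Bmp2 (1.87), Dlx3 (2.14) and the parathyroid hormone receptor gene Pth1r (2.36) were also called. The collagen genes Col1a1 (-0.28) and Col1a2 (-0.34) and the osteoblast factor gene Sp7 (0.12) were not called, and Bglap, Phex and Dmp1, genes of mature bone cells, had no window over a TSS. At the level of whole loci 2 of 18 osteoblast genes were higher in MSCs and 0 in NIH 3T3 cells, beside 7.92% and 9.96% of all loci.

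Of 8 chondrocyte genes 4 were higher in MSCs and 0 in NIH 3T3 cells (median 1.5), beside 15.5% and 5.86% of all genes. They were Nkx3-2 (2.61), Sox6 (2.31), Matn3 (1.91) and the cartilage collagen gene Col2a1 (1.75). Sox9, the factor that starts cartilage formation, was not called at its promoter (1154, 996 and 1135 in MSCs and 1247, 1139 and 1148 in NIH 3T3 cells, -0.10 ± 0.08). Its locus was higher in NIH 3T3 cells, with 19 of 27 tested windows called in that direction and 0 in the other (locus log2 fold change -1.23). The locus of Acan, the cartilage proteoglycan gene, was likewise higher in NIH 3T3 cells (-1.13). After local centering, described with the broad stretches further on, both were under the fold limit (-0.64 and -0.59).

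Muscle genes split. Pax3, a factor of muscle progenitors and neural crest, was higher in MSCs with 482, 451 and 513 in MSCs and 28.8, 15.5 and 13.8 in NIH 3T3 cells (log2 fold change 4.66 ± 0.17 (SE), adjusted p = 9.87e-31). Mef2c, a MADS-box factor of muscle and other mesoderm, was higher in NIH 3T3 cells with 66.8, 73.8 and 68.8 in MSCs and 1033, 994 and 996 in NIH 3T3 cells (log2 fold change -3.85 ± 0.12 (SE), adjusted p = 1.40e-34), and 30 of the 44 windows of its locus were called in that direction. Des, the desmin gene, was higher in MSCs (2.26). Myf5, Myf6, Myog and Pax7 had no window over a TSS in this table. Of 16 fibroblast and matrix genes, 2 were higher in MSCs, Col15a1 (1.91) and Fap (1.08), and 1 in NIH 3T3 cells, Dcn, the decorin gene (28.3, 23.9 and 33.4 in MSCs and 76.3, 90.9 and 88.5 in NIH 3T3 cells, -1.58 ± 0.24). These fibroblast and matrix counts lie near the 15.5% and 5.86% of all genes. Under total-count scaling, upper quartile scaling and local centering this list had 1 gene higher in MSCs and 2 in NIH 3T3 cells. Vim (0.32), Fn1 (0.53) and Fbn1 (0.06), genes of intermediate filaments and matrix, were not called.

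Genes used as marks of MSCs and of the marrow niche went in both directions, with 5 of 20 higher in MSCs and 3 in NIH 3T3 cells (median 0.39). Of all genes with a tested TSS window, 15.5% and 5.86% were called in these directions. Cxcl12, the chemokine by which marrow stroma retains blood stem cells, had 636, 641 and 585 in MSCs and 187, 186 and 164 in NIH 3T3 cells (log2 fold change 1.79 ± 0.11 (SE), adjusted p = 2.10e-21). The cytokine gene Il7 had 1121, 1109 and 1130.4 in MSCs and 226, 218 and 248 in NIH 3T3 cells (2.28 ± 0.10), and the ectoenzyme gene Nt5e had 159.9, 116 and 110.2 in MSCs and 8.85, 12.7 and 21.6 in NIH 3T3 cells (3.13 ± 0.26). All 3 were well separated between groups. Grem1 (1.96) and Sparc (1.01) were also called, Sparc just past the fold limit. The surface marker gene Thy1 was at 0, 0 and 2.02 in MSCs and 73.02, 57.3 and 86.6 in NIH 3T3 cells (-6.50 ± 0.54) and the pericyte proteoglycan gene Cspg4 at 0, 3.99 and 0 in MSCs and 92.9, 54.5 and 63.9 in NIH 3T3 cells (-5.58 ± 0.51), so these promoters were at or near 0 in MSCs. Lepr, a mark of marrow stroma, was higher in NIH 3T3 cells (14.2, 14.96 and 15.2 in MSCs and 44.3, 52.7 and 37.4 in NIH 3T3 cells, -1.60 ± 0.32). Lepr lies on chromosome 4 in a stretch that was higher in NIH 3T3 cells as a whole (block median -1.68), and after local centering its value was 0.08. The stromal genes Pdgfra (0.53), Pdgfrb (0.60), Cd44 (0.00) and Itgb1 (0.03) were not called.

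The windows around the listed genes, promoter and distal together, were counted in the same way. Of 375 tested windows around adipocyte genes 142 (37.9%) were higher in MSCs and 51 (13.6%) in NIH 3T3 cells, and of 285 around osteoblast genes 86 (30.2%) and 28 (9.82%). Around fibroblast and matrix genes the shares were 23.2% and 17.9% of 419 windows, around marrow niche genes 25.7% and 18.6%, around tumor suppressor genes 29.7% and 16.2% and around housekeeping genes 20.1% and 10.9%, beside the 18.7% and 17.2% of all windows within 50 kb of a protein-coding TSS. Among the tumor suppressor windows were windows of Cdkn2a and Cdkn2b in a stretch almost empty in NIH 3T3 cells, described further on. The share of that list without them was not computed. Around chondrocyte genes 39 (18.6%) of 210 windows were higher in MSCs and 56 (26.7%) in NIH 3T3 cells, but 19 of these 56 belong to Sox9. Around skeletal muscle genes the numbers were 17 (11.1%) and 46 (30.1%) of 153, and 30 of these 46 belong to Mef2c. The excess in the chondrocyte and the muscle list thus rests largely on 1 locus each. Windows around endothelial genes (7.45% and 37.8% of 188), epithelial genes (8.25% and 32.0% of 97) and blood cell genes (7.83% and 23.5% of 115) had larger NIH 3T3 shares, with 20 of the 71 endothelial windows at Tek, on chromosome 4. Windows of 1 gene are not independent of each other, and no list was tested against the others.

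Markers of other cell types were examined for each label. Over all genes with a tested TSS window, 15.5% were higher in MSCs and 5.86% in NIH 3T3 cells. Of 8 tested promoters of blood cell genes 0 were called in either direction in edgeR, although 3 were higher in MSCs with the GC trend removed, 1 was higher in MSCs with local centering and 1 in NIH 3T3 cells with total-count scaling. The defining genes Ptprc, Spi1, Itgam and Tyrobp had no window over a TSS. The summed promoter counts of this list were 656 to 773 in MSCs and 550.0 to 568 in NIH 3T3 cells. Of 8 endothelial genes 2 were higher in MSCs, Kdr (1.47) and Egfl7 (1.14), and 1 in NIH 3T3 cells, Pecam1 (-2.47), with sums of 414 to 491 and 320 to 379 and no TSS window at Tie1 and Emcn. Smooth muscle and pericyte genes gave 3 of 8 higher in MSCs (Notch3, 2.53, Des and Kcnj8) and 2 in NIH 3T3 cells (Tagln, -1.69, and Cnn1, -1.74), with sums of 954 to 1098 and 1175 to 1227. Epithelial genes had 2 tested promoters, of which Krt14 was higher in NIH 3T3 cells (-2.70), and Epcam, Cdh1, Krt8 and Krt18 had no TSS window. The part of such cells in the results was not tested. Housekeeping genes served as a control for scale, with 0 of 15 called and a median of 0.16, which became -0.03 with total-count scaling.

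Among transcription factors that pattern the body axis and limbs, some promoters differed strongly in each direction. Of 44 tested genes of this kind 10 were higher in MSCs and 8 in NIH 3T3 cells (median 0.31), beside 15.5% and 5.86% of all genes with a median of 0.28, and with total-count scaling these counts were 8 and 9. Msx1, a homeobox factor of limb and face mesenchyme, had 593, 493 and 523 in MSCs and 7.74, 9.09 and 9.84 in NIH 3T3 cells (log2 fold change 5.89 ± 0.19 (SE), adjusted p = 8.55e-34). Pitx1, a hindlimb factor, had 79.96, 75.8 and 79.9 in MSCs and 8.85, 6.36 and 10.8 in NIH 3T3 cells (3.17 ± 0.31). In the NIH 3T3 direction En1, the engrailed factor, had 17.2, 15.96 and 17.2 in MSCs and 617, 532 and 578 in NIH 3T3 cells (log2 fold change -5.09 ± 0.16 (SE), adjusted p = 1.58e-33). Tbx4, another hindlimb factor, had 2.02, 0.997 and 4.04 in MSCs and 49.8, 56.4 and 51.2 in NIH 3T3 cells (-4.41 ± 0.46). In the cell type where they were lower, these promoters held at most 17.2 counts in any library. Foxd1 (4.10) and Lhx2 (4.06) were higher in MSCs, and Nkx2-5 (-2.99) was higher in NIH 3T3 cells. Lhx8 (-1.66), called higher in NIH 3T3 cells, fell below the fold limit after local centering. Twist1 (0.11), Meis1 (0.04) and Pax9 (-0.10), general mesenchymal or cofactor genes, were not called.

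Hox genes differed by their place in the cluster. Hox clusters encode homeobox factors that give cells their position along the body, with low paralogue numbers toward the head and high numbers toward the tail and the limb tips. In the Hoxa cluster, Hoxa5 was higher in NIH 3T3 cells with 6.07, 7.98 and 4.04 in MSCs and 514, 385 and 444 in NIH 3T3 cells (log2 fold change -6.18 ± 0.21 (SE), adjusted p = 5.05e-32). From Hoxa9 on, the promoters were higher in MSCs. Hoxa9 had 450.4, 496 and 391 in MSCs and 8.85, 23.6 and 19.7 in NIH 3T3 cells (4.63 ± 0.18), Hoxa11 had 302, 296 and 296 in MSCs and 5.53, 12.7 and 8.85 in NIH 3T3 cells (4.99 ± 0.21) and Hoxa13 had 305, 292 and 322 in MSCs and 2.21, 5.45 and 4.92 in NIH 3T3 cells (6.11 ± 0.24). Hoxa10 was higher by less (1.35), with NIH 3T3 counts of 86.4 to 100.3. Hoxa3 (-0.59), Hoxa4 (-0.12), Hoxa6 (-0.56) and Hoxa7 (0.32) were not called.

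The Hoxc cluster was similar, with the turn nearer its head end. Hoxc4 was higher in NIH 3T3 cells (4.05, 3.99 and 6.07 in MSCs and 105, 87.3 and 92.5 in NIH 3T3 cells, -4.30 ± 0.33), while 6 genes were higher in MSCs. Among these, Hoxc10 had 285, 229 and 229.5 in MSCs and 0, 7.27 and 3.94 in NIH 3T3 cells (5.92 ± 0.28) and Hoxc13 had 652, 631 and 590.5 in MSCs and 7.74, 10 and 13.8 in NIH 3T3 cells (5.87 ± 0.17), and Hoxc5 (3.37), Hoxc6 (1.16), Hoxc9 (2.29) and Hoxc11 (3.55) followed. With total-count scaling 5 of the 6 were called. The Hoxd cluster was split, with 4 of 9 genes in each direction, or 3 and 4 with total-count scaling. Hoxd8 (74.9, 74.8 and 112 in MSCs and 559.8, 445 and 594 in NIH 3T3 cells, -2.61 ± 0.14) and Hoxd9 (106, 101 and 103 in MSCs and 541, 494 and 542 in NIH 3T3 cells, -2.34 ± 0.12) were higher in NIH 3T3 cells, as was the window that Hoxd3 and Hoxd4 share (-1.37). Hoxd1 (1.68), Hoxd11 (2.26), Hoxd12 (1.44) and Hoxd13 (2.45) were higher in MSCs at much lower counts, with 44.5, 34.9 and 63.7 in MSCs and 8.85, 3.64 and 13.8 in NIH 3T3 cells for Hoxd13. Hoxd1 and Hoxd12 were not called after local centering. In the Hoxb cluster only Hoxb5 of 10 genes had a window over a TSS, and its counts were too low to test.

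Grouped by paralogue number, a grouping chosen after the values were seen, 11 of 13 tested genes numbered 9 to 13 were higher in MSCs and 1, Hoxd9, was higher in NIH 3T3 cells (median log2 fold change 2.45). Of the 13 tested genes numbered 1 to 8, 3 were higher in MSCs and 5 in NIH 3T3 cells (median -0.56). Hoxd3 and Hoxd4, which share 1 window, both count among these 5, so 1 measurement enters more than once. These counts stand beside 15.5% and 5.86% of all protein-coding genes, and neighboring Hox genes are not independent of each other. Under the alternatives tried, 10 or 11 of the genes numbered 9 to 13 were higher in MSCs and 1 in NIH 3T3 cells.

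**Figure D3:**
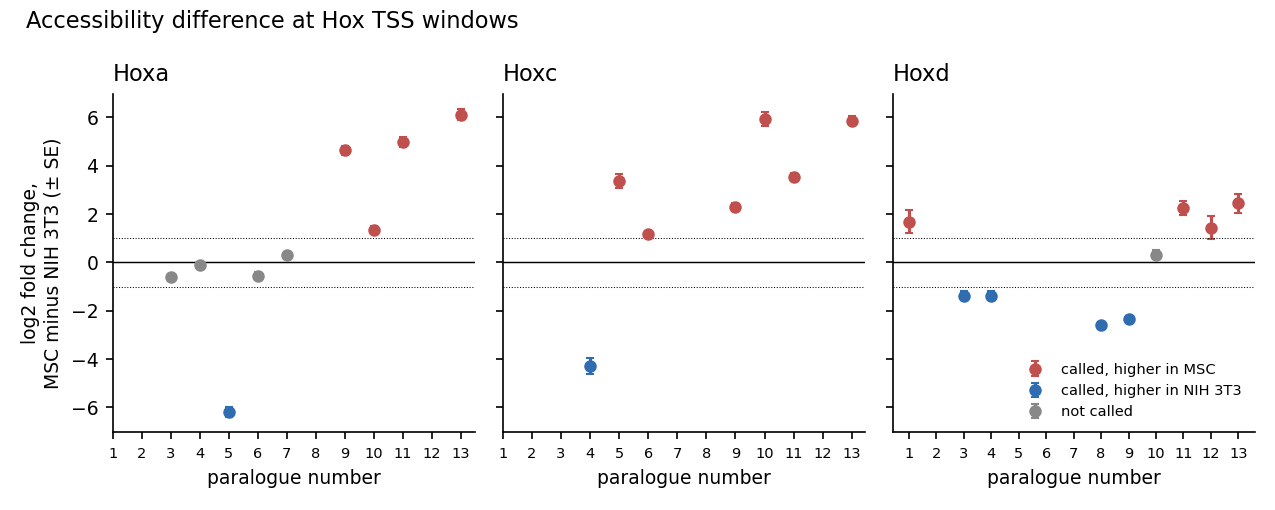
Log2 fold change (MSC minus NIH 3T3, ± SE, vertical axis) at the TSS windows of the Hox genes reported here, by paralogue number, in the Hoxa, Hoxc and Hoxd clusters. Red points were called higher in MSCs and blue points higher in NIH 3T3 cells, and dotted lines mark the fold limit of 1. Genes numbered 9 to 13 lie above 0 except Hoxd9 (-2.34), and Hoxd10 (0.32) was at -0.20 after local centering.

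Around Cdkn2a and its neighbor Cdkn2b, NIH 3T3 libraries were empty over a long stretch. The 23 consecutive windows between 89250375 and 89387692 on chromosome 4, 137318 bp in all, held 8056 counts in the MSC libraries and 7 in the NIH 3T3 libraries, and 21 of these windows were covered in MSCs, meaning that they averaged 20 normalized counts or more. Cdkn2b, which encodes the cell-cycle inhibitor Ink4b, had 378, 394 and 414 in MSCs and 0, 0 and 0 in NIH 3T3 cells at its TSS window, at least 395-fold higher in MSCs. All 8 tested windows of its locus were called in that direction. The surrounding 5 Mb had a block median of -1.65, that is, higher in NIH 3T3 cells, so the empty stretch lay inside a region of raised NIH 3T3 counts. Mtap, a nearby gene of methionine salvage, had 778, 808 and 793 in MSCs and 1541, 1456 and 1500.3 in NIH 3T3 cells (-0.92 ± 0.08).

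Other genes of cell-cycle control differed less. Of 15 tumor suppressor and senescence genes 4 were higher in MSCs and 0 in NIH 3T3 cells (median 0.54), beside 15.5% and 5.86% of all genes. With total-count scaling the counts were 3 and 1. Beside Cdkn2a and Cdkn2b the genes higher in MSCs included Rb1, the retinoblastoma gene (975, 1011 and 897 in MSCs and 359.6, 335 and 333 in NIH 3T3 cells, 1.49 ± 0.09). Rb1 lies in a block of chromosome 14 with a median of 1.02, and with local centering its value was 0.47, which was not called. Trp53 (0.12), Cdkn1a (0.42) and Cdkn1b (-0.02) were not called.

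The count of windows without signal in 1 cell type was not symmetric. Windows at 3 or fewer raw counts in every NIH 3T3 library but averaging 20 or more normalized counts in MSCs numbered 607, or 0.313% of the 193663 windows at that level in MSCs, and 191 of them were at 0 in all NIH 3T3 libraries. The reverse numbered 447, or 0.218% of 205143 windows, of which 16 were at 0 in all MSC libraries. Runs of consecutive windows at 3 or fewer counts in every library of 1 cell type, of which at least 3 windows reached that level in the other, numbered 11 for NIH 3T3 and 0 for MSCs. Beside the Cdkn2a stretch these included 6 windows at Trim12a and Trim5 on chromosome 7, genes of antiviral factors (104274829 to 104316282, 1112 counts in MSCs and 0 in NIH 3T3), and 4 windows at Mtrr on chromosome 13 (68530217 to 68553852, 767 counts and 0). Several runs lay on chromosome 14 between 43858016 and 44683754, where the Ear ribonuclease genes and unnamed gene models form multi-copy families. Counts in such families are uncertain, because reads may be shared between near-identical copies. The sources used here do not give how such reads were counted. Closed chromatin, missing DNA and sequence that does not map to the reference cannot be told apart from counts alone. Windows empty in NIH 3T3 cells held more repeat sequence, with a median of 20.6% of bases soft-masked in the reference, against 15.2% in windows empty in MSCs and 14.8% over all tested windows.

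Accessibility also differed over broad stretches of chromosomes. In 530 blocks of 5 Mb, the block median of the log2 fold change was above 0.5 in 94 and below -0.5 in 55, with an SD of 0.52 over blocks. The balance between these numbers turned with the scaling, to 54 and 103 with total counts, and from TSS windows alone 95 and 11 of 429 blocks passed the limits. The longest run in the NIH 3T3 direction was 14 consecutive blocks on chromosome 4, from 60 to 130 Mb, with block medians from -1.70 to -0.95. Of its 13468 tested windows 56.5% were higher in NIH 3T3 cells and 3.58% in MSCs, and it held 11.8% of all windows called higher in NIH 3T3 cells but 3.96% of the tested windows. TSS windows in this run had a median of -0.82. In the MSC direction, chromosome 18 had 17 of 19 blocks above 0.5 (chromosome median 0.73) and chromosome 14 had 19 of 24 (chromosome median 0.63). Chromosome 3 leaned to NIH 3T3 cells (-0.48), and its blocks from 105 to 145 Mb were all below -0.5. TSS windows followed in the MSC direction, with medians of 0.66 on chromosome 14 and 0.76 on chromosome 18. In the NIH 3T3 direction they followed less, with -0.22 against -1.03 for all windows on chromosome 4 and -0.14 against -0.48 on chromosome 3.

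**Figure D4:**
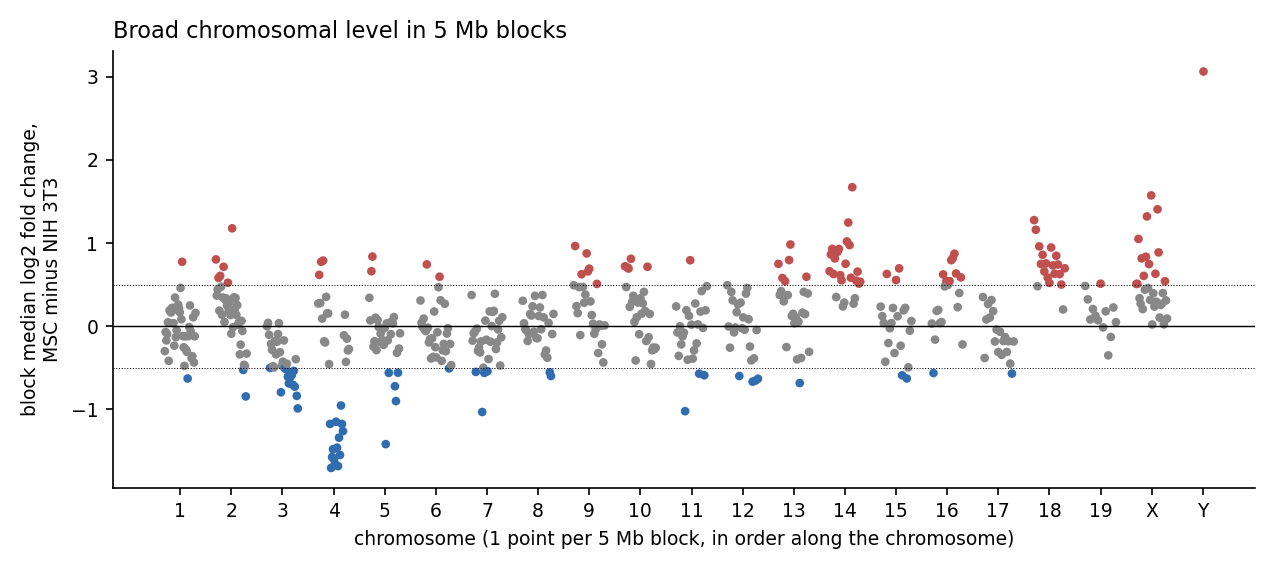
Median log2 fold change (MSC minus NIH 3T3, vertical axis) of the tested windows in each block of 5 Mb, in order along each chromosome. Red points lie above 0.5 and blue points below -0.5. Chromosome 4 has a run of 14 blocks between -1.70 and -0.95, chromosomes 14 and 18 lie mostly above 0.5, and the single block of chromosome Y is at 3.07.

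These broad levels enter single windows and genes. After local centering, in which the median of a window's own 5 Mb block was removed before the test, 2069 of the 14806 promoters (14.0%) were higher in MSCs and 782 (5.28%) in NIH 3T3 cells. Without the chromosome 4 run, 57020 windows in place of 64623 were higher in NIH 3T3 cells and 62820 in place of 63302 in MSCs. A difference in the number of DNA copies and a difference in accessibility over megabases cannot be told apart in these counts.

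Beyond the lists, the largest promoter differences with at least 100 counts in the higher group were taken in each direction. In MSCs, after Cdkn2b and Cdkn2a, they included Aph1c, a gamma-secretase subunit gene (532, 578 and 478 in MSCs and 4.43, 0 and 3.94 in NIH 3T3 cells, log2 fold change 7.58 ± 0.24 (SE), adjusted p = 1.58e-33), Stpg2 (6.95), Akip1 (6.44) and Prelid2 (6.31). Bmp4, a growth factor of bone and mesoderm, had 438, 412 and 357 in MSCs and 3.32, 2.73 and 7.87 in NIH 3T3 cells (6.40 ± 0.23). Cldn34c1 (8.05) belongs to a multi-copy family on chromosome X and is uncertain. In the NIH 3T3 direction, Gas7, a growth-arrest gene, had 6.07, 8.98 and 3.03 in MSCs and 867, 756 and 859 in NIH 3T3 cells (log2 fold change -7.07 ± 0.19 (SE), adjusted p = 5.59e-37). Irx2, an Iroquois homeobox factor, had 39.5, 32.9 and 36.4 in MSCs and 2404, 2014 and 2334 in NIH 3T3 cells (-5.95 ± 0.13), and Tiam1, a Rac exchange factor, 12.1, 15.96 and 29.3 in MSCs and 1411, 1218 and 1323 in NIH 3T3 cells (-6.10 ± 0.15). No library of the lower cell type reached 40 counts at any of these promoters.

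Slc16a13 (-7.09), Mab21l1 (-6.51), the splicing factor gene Srrm4 (-6.42), the small heat-shock gene Hspb8 (-6.14) and Brinp1 (-6.10) were also among the largest in NIH 3T3 cells. Brinp1 lies in the chromosome 4 run, and local centering left -4.41. Zfp932 (-10.04), of a zinc-finger family with close copies, is uncertain.

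Among all windows, the largest MSC differences were at sites where every NIH 3T3 library was at 0. A window in an intron of Cfap61 held 382, 413 and 409.5 counts in MSCs, at least 401-fold higher, and windows near Syt6, Abca13, Api5 and Tox4 were at least 356, 353, 238 and 234-fold higher. Windows near Ear10, Ear6 and Ear1, of the multi-copy ribonuclease family, were at least 509, 476 and 409-fold higher and are uncertain. In the reverse direction, a window at Cbwd1 held 289, 290.0 and 269 counts in NIH 3T3 cells and 0 in every MSC library, at least 281-fold, and a window near Gbe1 was at least 165-fold higher. Near Lifr, the receptor gene for leukemia inhibitory factor, NIH 3T3 counts were 177, 181 and 179 against 0, 0 and 2.02 (log2 fold change -7.81 ± 0.40). Windows near Nmi (-8.24 ± 0.27), Slc22a22 (-8.12 ± 0.22) and Ifne (-7.59 ± 0.20, in the chromosome 4 run) were of similar size.

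Loci were ranked by their number of called windows, a ranking that favors loci with many windows. Beside these counts stand 18.7% (MSC) and 17.2% (NIH 3T3) of all windows within 50 kb of a protein-coding TSS. In the MSC direction the counts were highest at Pde4d, a cAMP phosphodiesterase gene (91 of 178 tested windows), Asap1 (87 of 170), Foxp1 (60 of 186), the mesenchymal repressor gene Zeb2 (51 of 74), Elmo1 (50 of 75), Samd4 (49 of 76), the basement membrane collagen gene Col4a1 (48 of 91), Zmiz1 (48 of 88), Ext1 (47 of 95) and Esyt2 (45 of 64). The summed counts of Zeb2 (log2 fold change 1.26 ± 0.04), Elmo1 (1.94 ± 0.04), Zmiz1 (1.37 ± 0.05) and Ext1 (1.02 ± 0.04) passed the fold limit. Elmo1, an activator of Rac signaling, kept 1.64 after local centering, while Asap1 had 29 called windows left of 87 and Pde4d 40 of 91. With local centering the locus sum of Asap1 turned from 0.47 to -0.23, and that of Pde4d fell from 0.70 to 0.11.

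In the NIH 3T3 direction the first 5 loci were on chromosome 4, namely Pde4b (112 of 146 windows), Adamtsl1 (106 of 114), Dab1 (81 of 94), the fibroblast zinc-finger gene Bnc2 (75 of 99) and Sgip1 (68 of 80). After local centering 23, 15, 5, 21 and 10 windows were called in these loci. Gas7 (64 of 82 windows, locus log2 fold change -3.16 ± 0.05) and the teneurin gene Tenm4 (64 of 95, -2.26 ± 0.05) lie on chromosomes 11 and 7, and after local centering 58 and 64 of their windows were called. Ank (60 of 106) and Ppm1h (59 of 148) followed, and Fggy (60 of 101), on chromosome 4, had 17 windows after local centering. The Gas7 and Tenm4 loci were thus apart from their blocks in size.

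Short sequence motifs were counted in the central 200 bp of every tested window, on both strands, as a property that the choice of the libraries did not use. The AP-1 letters TGANTCA stood in 34.4% of windows higher in NIH 3T3 cells, 25.2% of those higher in MSCs and 25.7% of all tested windows. AP-1 factors are dimers of Fos and Jun proteins that respond to growth factors. The RUNX letters TGTGGT showed the reverse, with 26.4% of windows higher in MSCs, 17.8% of those higher in NIH 3T3 cells and 20.9% of all. The EBF letters CCCNNGGGA stood in 6.34%, 2.42% and 3.96% of these sets, the C/EBP letters TTGCNNAA in 12%, 8.16% and 9.12%, the letters TTTATNG of posterior HOX proteins in 12%, 7.73% and 8.90%, and the GATA letters AGATAA in 11.7%, 7.16% and 8.76%. TEAD letters (GGAATG) gave 18.5%, 15.9% and 15.9%. The median share of G and C bases was 44.1% in windows higher in MSCs, 45.4% in those higher in NIH 3T3 cells and 45.3% in all. No letters matched for base composition were counted, so its part in the shares was not tested. Windows are not independent of each other, and the shares are given without a test.

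The shares moved with the size of the difference. RUNX letters went from 24.4% of MSC windows with a log2 fold change of 1 to 2, to 28.6% at 2 to 4 and 30.9% above 4. AP-1 letters went from 32.3% to 37.3% and 38.2% in the same classes of NIH 3T3 windows. At TSS windows AP-1 letters stood in 19.4% of those higher in NIH 3T3 cells, 10.3% of those higher in MSCs and 9.99% of all, whereas RUNX letters hardly differed there (13%, 13.5% and 11.9%). Outside chromosome 4 the AP-1 share of NIH 3T3 windows was 35.9%. The PBX-HOX letters TGATTNAT leaned to NIH 3T3 cells (6.31% against 4.87%), but they can overlap AP-1 letters when N is C, and in windows without AP-1 letters the shares were 2.66% and 1.91%. Of the other 12 motifs, the E-box letters CAGCTG (12.9% against 12.7%) and the NFI letters TTGGCA (13.1% against 13.2%) were common and differed by less than 1 percentage point. The letters used for CTCF, MEF2, ETS, SRF and NF-kB stood in less than 1% of all tested windows, so a difference in points says little about them. CTCF letters (AGGGGGCGC) stood in 0.237% of windows higher in MSCs, 0.159% of those higher in NIH 3T3 cells and 0.357% of all.

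**Figure D5:**
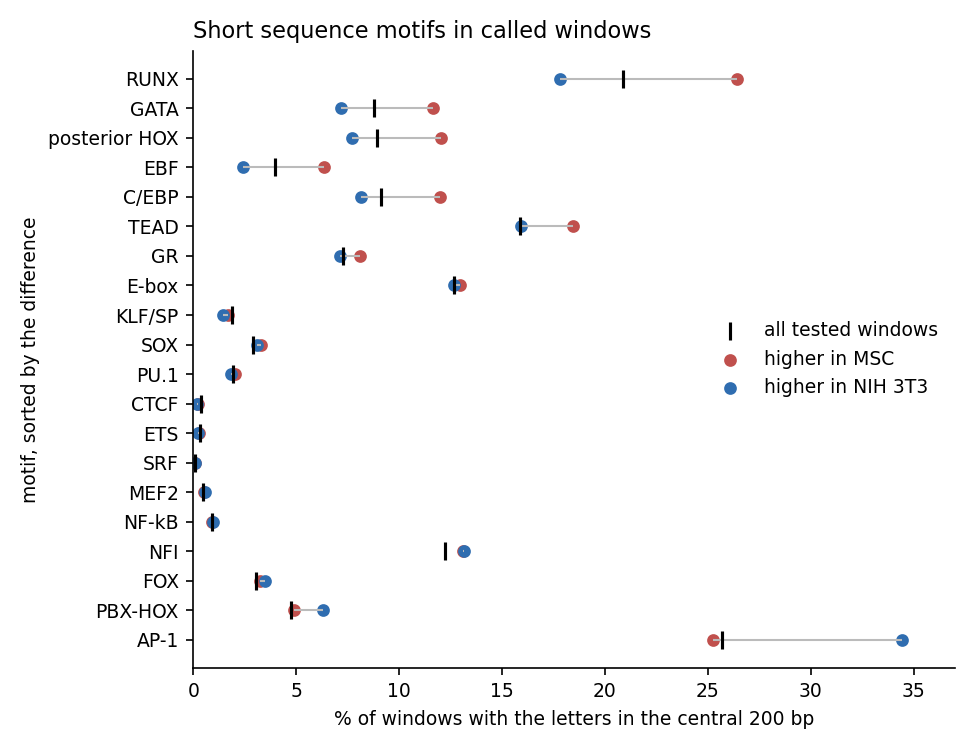
Share of windows (percent, horizontal axis) with the letters of each of 20 motifs in the central 200 bp, for windows called higher in MSCs (red), higher in NIH 3T3 cells (blue) and all tested windows (black tick), sorted by the difference. RUNX is at the top (26.4% against 17.8%) and AP-1 at the bottom (25.2% against 34.4%).

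Promoters of the factors that bind these motifs were compared in turn. Of 20 genes of the Runx, Ebf, Tead and AP-1 families 4 were higher in MSCs and 0 in NIH 3T3 cells (median 0.28), beside 15.5% and 5.86% of all genes with a median of 0.28. Runx3 had 129, 135 and 98.1 in MSCs and 2.21, 10 and 1.97 in NIH 3T3 cells (log2 fold change 4.57 ± 0.33 (SE), adjusted p = 3.15e-18), and Ebf2 had 1065, 1034 and 994 in MSCs and 152, 135 and 129 in NIH 3T3 cells (2.90 ± 0.11). Both were well apart between groups. Ebf4 (1.68) and Batf3 (1.53) were the other calls. Runx1, with 745, 746 and 667 in MSCs and 394, 371 and 341 in NIH 3T3 cells, lay just under the fold limit (0.97 ± 0.10), and 25 of the 38 windows of its locus were higher in MSCs (locus log2 fold change 1.15, or 0.56 after local centering). Among AP-1 genes, Jun had 1595, 1444 and 1550.0 in MSCs and 2359.9, 1774 and 2183 in NIH 3T3 cells (-0.46 ± 0.09, not called) in the chromosome 4 run, Fosb was at -0.43, Fos at -0.02, Junb at 0.11 and Fosl1 at 0.31, none of them called. AP-1 letters leaned to NIH 3T3 windows, while no AP-1 gene promoter was called higher there. With 5.86% of all promoters called in that direction, 0 calls in a list of 20 lies near the overall share.

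Genes of actin and of its nuclear regulation, the subject of the series, had few called promoters at baseline. Of 27 tested promoters 2 were higher in MSCs and 1 in NIH 3T3 cells (median 0.18), beside 15.5% and 5.86% of all genes with a median of 0.28. Of the tested windows around them 18.7% were higher in MSCs and 11.9% in NIH 3T3 cells, beside 18.7% and 17.2% of all windows within 50 kb of a protein-coding TSS. Wasf3, which encodes an activator of the Arp2/3 complex, had 213, 253 and 304 in MSCs and 1254, 1075 and 1331 in NIH 3T3 cells (log2 fold change -2.25 ± 0.11 (SE), adjusted p = 5.37e-26). Diaph1, a formin gene (1338, 1360.4 and 1344 in MSCs and 660.5, 581 and 652 in NIH 3T3 cells, 1.10 ± 0.09), and Actr3b (1.08) passed the limit in MSCs, and both were lost with total-count or upper quartile scaling. Diaph1 lies on chromosome 18 and had 0.34 after local centering. Actb, with 453, 485 and 394 in MSCs and 499, 376 and 432 in NIH 3T3 cells, was at 0.03 ± 0.10. The Arp2/3 subunit genes Actr2 (0.46), Actr3 (0.18) and Arpc2 (-0.03) and Actl6a, the gene of the nuclear protein Arp4 (0.07), were not called.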

How the data were processed

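ATAC-seq libraries were made with the Omni-ATAC protocol, stated for MSCs as 50000 cells per library, and sequenced paired-end. The authors aligned reads with bowtie2 within PEPATAC, called peaks with MACS2 and joined the peaks of the replicates within each condition. The methods do not say how the peaks of the conditions became the windows of this table. The deposited values are raw counts of reads per window and library, with replicates not pooled. The genome build in the submitters' processing notes is mm10, and no source used here names the tool versions. Windows were annotated from GRCm38 with GENCODE genes: 0 windows ran past a chromosome end, and 44.6% of TSSs lay in a window against 14.4% after a shift of 20000 bp. The 6 treated columns of the table were not used, nor was a second table with other time points and knockdowns.

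Counts were filtered (filterByExpr), scaled by TMM and tested in edgeR 4.0.16 (R 4.3.3) by the quasi-likelihood test with Benjamini-Hochberg adjustment over all 339793 tested windows, without covariates, and again for 19254 gene loci, where a locus sums the windows nearest to a protein-coding TSS and within 50 kb of it. Calls needed an adjusted p below 0.01 and a log2 fold change beyond 1. The common biological coefficient of variation was 0.137 for windows and 0.0512 for loci. On simulated data with 200 windows changed by 2 on the log2 scale, 191 (95.5%) were recovered with 1 false call among 339793 windows, and for loci 200 of 200 with 0 false calls. The changed windows and loci were drawn from those averaging at least 20 counts, and all others had no difference. The simulation therefore does not measure recovery near the fold limit or in weak windows. Nor does it measure false calls where many windows differ, as in these data. DESeq2 1.42.0 was an alternative and gave the variance-stabilized values of the principal components. Python 3.11.15, pandas 2.3.3, numpy 2.4.6 and matplotlib 3.10.9 were used for joins, motifs and plots.

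A gene's TSS window was its window over a TSS with the highest mean count in the 6 libraries. Named items were, per direction, the 10 called windows, 10 TSS windows (mean of at least 100 normalized counts in the higher group, no overlap, 1 per gene, gene models without a name passed over), the 10 loci with the most called windows, and list members with the largest and smallest changes. Members, markers, gene lists and motifs were chosen with earlier results of these data known, and lists were described without a test. Folds against a group at 0 used a floor of 3 counts over the 3 libraries, and floors cover counting error only. Some genes that these rules select are not reported here.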

Additional observations from a re-analysis of the deposited data

How the results depend on the processing

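With a log2 fold limit of 2 in place of 1 the counts in the MSC and NIH 3T3 directions were 28111 and 27221 windows, 1773 and 938 TSS windows, 4056 and 4711 windows beyond 50 kb, and 364 and 376 loci, and with distal taken as over 5 kb 42000 and 46710 windows. Counts of windows, TSS windows, windows beyond 50 kb and loci otherwise stayed within 1.5 times the reported ones, although the split of directions moved (54636 and 75978 windows with upper quartile scaling, 52515 and 78296 with total counts, 57440 and 53130 with DESeq2). Blocks past 0.5 and -0.5 numbered 54 and 103 with total counts, 42 and 23 as blocks of 10 Mb, and 95 and 11 from TSS windows alone. In a central 100 bp the motif gaps in percentage points were -6.92 for AP-1, 6.61 for RUNX, 2.10 for TEAD, 2.53 for EBF, 2.41 for C/EBP, 2.67 for posterior HOX, -1.03 for PBX-HOX and 2.28 for GATA, since a shorter window holds fewer letters. Without TSS windows they were 9.32 for RUNX, 4.72 for posterior HOX and 4.86 for GATA. The Runx2 promoter reversed to -0.034 (upper quartile scaling), -0.068 (total counts) and -0.15 (GC trend removed), and the Lepr promoter to 0.077 (local centering). The cause of these changes was not tested. Dropping 1 library at a time gave 58676 to 61105 windows higher in MSCs and 56115 to 58043 higher in NIH 3T3 cells, 1486 to 1616 and 1860 to 1997 loci, and a principal component distance of 27.2 (without NIH 3T3 library 3) to 63.3 (without NIH 3T3 library 2) times the largest replicate SD, 45.8 with all. Same-numbered libraries did not deviate together (correlations 0.0047 to 0.0186, under the limit of 0.1), and a replicate block gave 61034 and 60287 windows, 4095 and 2257 TSS windows, 7869 and 9885 windows beyond 50 kb, and 1527 and 1922 loci. Of 2123 recomputed values of 152 single genes, windows and loci, 2030 stayed the same, 86 became weaker, 3 became stronger and 4 reversed. For a fold change, the same meant that direction and call were kept, weaker that the call was lost and stronger that one was gained. For loci ranked by called windows, the same meant a count of such windows within 1.5 times the reported one. Weaker there meant a lower count, so many windows could still be called. Apart from the markers, the genes, windows and loci were chosen for being called, or for many called windows, in these same data. The share that stayed the same was therefore largely set by that choice. Leaving out the chromosome 4 run was chosen after seeing the data.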

Other observations

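Chromosomes not described above also differed in their balance. On chromosome X 29.5% of 7703 tested windows were higher in MSCs and 13.2% in NIH 3T3 cells (median log2 fold change 0.42), and on chromosome 16 the shares were 25.05% and 15.8% (median 0.29). Chromosome 13 gave 25.3% and 18.2%, and chromosome 9 23.6% and 16.8%. Of the 41 tested windows of chromosome Y, 37 were higher in MSCs and 0 in NIH 3T3 cells at adjusted p below 0.01 in edgeR, with a median log2 fold change of 3.07.

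Some empty runs lay away from the genes named above. On chromosome 1, 5 consecutive windows at Gal3st2, between 93854047 and 93862951, held 540 counts in MSCs and 0 in NIH 3T3 cells. Another 6 windows of that chromosome, between 124439696 and 124459019 and with no protein-coding TSS within 50 kb, held 821 counts in MSCs and 0 in NIH 3T3 cells.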
